A study of Mus musculus with 3 samples.

Results

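Accessible chromatin was examined at 9 genes that pattern the progenitors of the spinal cord: Olig1, Olig2, Nkx2-2, Nkx6-1, Nkx6-2, Irx3, Irx5, Dbx1 and Neurog2. They were 9 of 21938 protein-coding genes and were chosen by name, as genes of a later fate of caudal epiblast cells. A peak belonged to a gene if it overlapped the gene body or the 50 kb on either side. ATAC-seq, which reads out where a transposase can insert into open DNA, gave 1 list of broad peaks for each of 3 samples of embryonic stem (ES) cells from mouse, after 72 h of differentiation. Around these genes lay 91 of the 129843 peaks of SOX2-ON, 78 of the 131520 peaks of SOX2-OFF and 71 of the 130348 peaks of CEpiLC. Merging the overlapping peaks of the 3 lists left 136 regions of 219473 in the whole series.

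All samples came from HM1 ES cells of strain 129 that carry the doxycycline-responsive activator rtTA at the Rosa26 locus. They received 10 ng/ml bFGF and 5 µM LGK974, an inhibitor of WNT secretion, and the WNT agonist CHIR99021 was added after 2 days. CEpiLC was the wild-type control, without doxycycline, and stands for caudal epiblast-like cells. SOX2-ON and SOX2-OFF came from a single engineered line with genotype Sox2-/-, in which the only source of SOX2 is a doxycycline-inducible transgene at the Hprt locus. Doxycycline, present at 1 µg/ml while the ES cells were grown, was maintained in SOX2-ON and withdrawn in SOX2-OFF. The comparison asked how spinal cord loci differed in accessibility between cells with induced SOX2, cells with induction withdrawn and the wild type. The paper reports low levels of SOX2 in SOX2-OFF cells, probably from protein that persisted after doxycycline was removed.

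In the neural tube, Sonic hedgehog from the floor plate and notochord sets up bands of progenitors along the dorsoventral axis, each marked by a combination of transcription factors. Factors of neighbouring bands repress each other, which sharpens the borders between them. The caudal epiblast, where SOX2 and Brachyury are co-expressed, is a source of both spinal cord and paraxial mesoderm. Nkx2-2 marks the progenitors next to the floor plate, Olig2 the motor neuron progenitors, Nkx6-1 and Nkx6-2 the ventral bands, and Dbx1 and the Iroquois genes Irx3 and Irx5 more intermediate ones. Olig1, the neighbour of Olig2, acts in oligodendrocytes, and Neurog2 is a proneural factor that drives progenitors to become neurons.

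With 1 sample per group there was no replicate spread to hold a difference against, and no test was made. The −log10 p of a peak grows with sequencing depth, which is unknown here, so peaks were compared by their percentile, the percentage of peaks of the same list with a lower −log10 p. A gap in one list can mean a signal just under the calling threshold. Both lists of the engineered line held an excess of peaks on chromosomes 6 and 8, with 123 to 135 peaks per Mb against 32.0 to 49.3 on the autosomes other than 6, 8 and 11, and CEpiLC held an excess on chromosome 11 (180 per Mb). Irx3 and Irx5 lie on chromosome 8 and none of the other genes lies on these 3 chromosomes, so Irx3 and Irx5 are given apart from the other 7. All 15 marker genes examined had a peak at a start in every list, including the caudal epiblast markers T, Cdx1, Cdx2, Nkx1-2, Fgf8 and Wnt3a and the pluripotency markers Klf4 and Nanog, so a start peak by itself did not separate cell types. The paraxial mesoderm gene Msgn1 differed most, with percentiles of 12.6 for SOX2-ON, 85.7 for SOX2-OFF and 82.2 for CEpiLC.

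Regions held by only some of the lists lay away from the starts of the 9 genes. As examples of such regions and of shifts in rank, 8 regions are shown. The central 200 bp of the peak is given on the plus strand of mm10, and capitals mark a match to a motif.
The strongest SOX2-ON only region, at chr16:91192718-91192917, lay 32.6 kb upstream of Olig2 in intergenic DNA.
Olig2 upstream: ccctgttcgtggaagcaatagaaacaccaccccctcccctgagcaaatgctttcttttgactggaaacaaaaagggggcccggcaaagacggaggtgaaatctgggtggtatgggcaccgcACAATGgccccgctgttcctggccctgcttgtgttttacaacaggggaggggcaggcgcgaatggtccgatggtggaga
The next SOX2-ON only region, at chr5:101713448-101713647, was intergenic and 48.6 kb upstream of Nkx6-1.
Nkx6-1 upstream: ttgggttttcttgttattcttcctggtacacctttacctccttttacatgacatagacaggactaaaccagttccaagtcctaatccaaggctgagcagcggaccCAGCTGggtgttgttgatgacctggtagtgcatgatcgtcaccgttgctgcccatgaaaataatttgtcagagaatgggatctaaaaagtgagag
The strongest SOX2-OFF only region, at chr8:91768079-91768278, was intergenic and 33.9 kb downstream of the Irx3 start.
Irx3 downstream: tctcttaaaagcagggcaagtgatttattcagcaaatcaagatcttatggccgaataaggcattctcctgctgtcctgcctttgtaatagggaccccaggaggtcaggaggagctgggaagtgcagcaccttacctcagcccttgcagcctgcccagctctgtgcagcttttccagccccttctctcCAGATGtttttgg
The strongest CEpiLC only region, at chr8:92360228-92360427, lay in an exon of Irx5, 2.70 kb from its start and outside the annotated UTRs.
Irx5 exon: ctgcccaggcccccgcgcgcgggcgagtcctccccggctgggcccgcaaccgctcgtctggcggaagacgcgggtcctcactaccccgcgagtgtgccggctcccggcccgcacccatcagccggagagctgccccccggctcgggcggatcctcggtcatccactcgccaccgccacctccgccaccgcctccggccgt
A region of both engineered-line lists that CEpiLC lacked, at chr2:147170841-147171040, lay 23.3 kb downstream of the Nkx2-2 start in intergenic DNA.
Nkx2-2 downstream: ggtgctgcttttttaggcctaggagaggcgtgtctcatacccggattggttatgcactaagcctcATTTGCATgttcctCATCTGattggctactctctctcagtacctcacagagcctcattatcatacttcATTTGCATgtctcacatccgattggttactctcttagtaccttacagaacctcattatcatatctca
A region of SOX2-OFF and CEpiLC that SOX2-ON lacked, at chr16:91304178-91304377, lay in an intron of the non-coding gene Gm15966, 34.5 kb downstream of Olig1.
Olig1 downstream: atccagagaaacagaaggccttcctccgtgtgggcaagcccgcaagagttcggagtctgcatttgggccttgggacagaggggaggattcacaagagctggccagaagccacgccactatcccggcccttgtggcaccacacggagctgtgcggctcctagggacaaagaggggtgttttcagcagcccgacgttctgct
The shared region with the largest rank difference in favour of SOX2-ON over SOX2-OFF, at chr7:49678457-49678656, was intergenic and 41.8 kb upstream of Dbx1.
Dbx1 upstream: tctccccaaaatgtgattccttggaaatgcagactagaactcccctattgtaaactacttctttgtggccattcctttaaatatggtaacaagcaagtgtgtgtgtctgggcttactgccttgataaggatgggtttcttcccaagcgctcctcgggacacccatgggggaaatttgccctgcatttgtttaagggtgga
The shared region with the largest rank difference in favour of CEpiLC, at chr2:147180985-147181184, lay in an Nkx2-2 intron, 13.2 kb from the start.
Nkx2-2 intron: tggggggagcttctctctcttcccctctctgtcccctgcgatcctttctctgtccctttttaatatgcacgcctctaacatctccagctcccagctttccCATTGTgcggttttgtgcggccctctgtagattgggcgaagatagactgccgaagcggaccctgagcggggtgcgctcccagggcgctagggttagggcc
The motifs searched on both strands were SOX (ACAATG), OCT (ATGCAAAT), TCF/LEF (ATCAAAG), CDX/HOX (TTTATNG), T-box (GGTGTGA), the GATA family motif (AGATAA), FOXH1 (TGTGGATT), GLI (TGGGTGGTC) and 3 forms of the E-box, namely CAGCTG, then its variant CATATG and last the form CAGATG, and no matches overlapped in these windows. The SOX match upstream of Olig2 is of a kind found in the same window of 11.5% of all SOX2-ON peaks, and the one in the Nkx2-2 intron of a kind found in 8.54% of CEpiLC peaks. CAGCTG upstream of Nkx6-1 occurred in 12.6% of SOX2-ON peaks, and CAGATG downstream of Irx3 in 15.7% of SOX2-OFF peaks. The window downstream of Nkx2-2 held OCT at 2 places and CAGATG at 1, motifs that occurred in 1.45% and 15.3% of SOX2-ON peaks. That window was masked as a repeat over 100% of its length, and the whole peak over 97.4%, against 0 to 30% for the other 7 windows. The Irx5 exon, Olig1 and Dbx1 windows held none of these letters.

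Every one of the 9 genes had a peak within 1 kb of an annotated start in each of the 3 lists. Over all protein-coding genes the share with a start peak was 74.9% for the SOX2-ON list, 75.8% for SOX2-OFF and 76.3% for CEpiLC. With peaks required to overlap the start itself, the counts were again 9 of 9 in each list. Dbx1 was the weakest. At a −log10 q of at least 5 it lost its start peak in all 3 lists, while the other 8 kept theirs.

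Olig2 (chr16:91225457-91228677, plus strand) had start peaks at percentiles 84.5 for SOX2-ON, 87.5 for SOX2-OFF and 86.9 for CEpiLC, 2629, 2633 and 2964 bp wide. Olig1 (chr16:91269772-91271933, plus strand) stood at 91.4, 90.4 and 92.3, with widths of 2122, 2418 and 2488 bp. The 3 lists thus differed by at most a few percentile points at either gene. Nkx6-1 (chr5:101658139-101664996, minus strand) stood at 93.9, 93.5 and 88.0 in the same order, lowest in CEpiLC, although the peak was widest there (3114 bp, against 2476 and 2788). Nkx6-2 (chr7:139579376-139582797, minus strand) stood at 88.5, 86.7 and 88.9 and was 2129, 2227 and 2321 bp wide. Nkx2-2 (chr2:147177546-147194243, minus strand) has several annotated starts in 2 clusters. At the most upstream start the percentiles were 81.3, 86.3 and 82.2, and at the inner start, 6.93 kb downstream, they were 83.0, 80.4 and 73.7. The upstream start thus stood highest in SOX2-OFF and the inner one in SOX2-ON.

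Dbx1 (chr7:49631499-49636849, minus strand), which marks the progenitors at the middle of the neural tube, stood at 61.7 for SOX2-ON, 60.1 for SOX2-OFF and 73.1 for CEpiLC. It was the lowest of the 9 genes in each list and the only start ranked higher in CEpiLC than in either engineered-line list by over 10 points, 11.4 above SOX2-ON and 13.0 above SOX2-OFF. Over all coding genes, the 5th to 95th percentile of SOX2-ON minus CEpiLC was −11.6 to 6.07 points, which holds the Dbx1 value. That of SOX2-OFF minus CEpiLC was −5.37 to 5.80, which does not. Most of those start peaks ranked higher than Dbx1, with lower quartiles of 87.5, 88.5 and 87.7, and starts of similar rank were not compared. Dbx1 fold enrichment was 1.73 for SOX2-ON, 1.55 for SOX2-OFF and 1.74 for CEpiLC, and −log10 p was 6.67, 5.66 and 5.92. In SOX2-ON the Dbx1 start region was split into separate peaks and the one ranked was 832 bp wide, against 2295 bp in SOX2-OFF and 2267 bp in CEpiLC. Irx3 (chr8:91798525-91802067, minus strand) stood at 95.7, 94.7 and 92.8, and Irx5 (chr8:92357625-92376286, plus strand) at 98.6, 97.4 and 92.3. Irx5 was the highest of the 9 genes in both engineered-line lists. Its rank exceeded that in CEpiLC by 6.28 points in SOX2-ON and 5.06 in SOX2-OFF, where the median over coding genes of chromosome 8 was 1.72 and 2.18. The 5th to 95th percentile over those genes ran from −5.27 to 9.35 and from −1.36 to 9.74, which holds both Irx5 values. Neurog2 (chr3:127633135-127635631, plus strand) stood at 89.9, 90.6 and 89.8, within 1 point across the lists.

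Between SOX2-ON and SOX2-OFF the start percentiles of the 8 genes other than Nkx2-2 differed by −3.03 to 1.78 points. Those of Nkx2-2 differed by −4.98 points at its upstream start and by 2.59 at its inner start. Over all coding genes, each taken at its highest start peak, the 5th to 95th percentile ran from −10.0 to 3.24. What the 9 starts had in common was clearer than how the lists differed. They were wide: the median was 2129 bp for SOX2-ON, 2418 for SOX2-OFF and 2488 for CEpiLC, against 1317, 1425 and 1358 bp over all coding genes with a start peak. Of the 9, 7 for SOX2-ON, 9 for SOX2-OFF and 8 for CEpiLC were wider than the upper quartile of all start peaks. The SOX2-ON count takes Nkx2-2 at its inner start (1196 bp); the upstream start region was 1896 bp wide. Their fold enrichment over the local background lay below the median of all start peaks for 9 of 9 in each list. The medians were 3.06 against 4.06 in SOX2-ON, 2.42 against 3.22 in SOX2-OFF and 2.15 against 2.79 in CEpiLC. The percentile lay below the median of all start peaks for 6, 7 and 9 of the 9. Start peaks of matched width were not compared. The sequence under most start peaks was rich in CpG, with a median of 7.63, 7.63 and 7.55 CG dinucleotides per 100 bp against 5.66, 5.35 and 5.47 over all coding genes. Exceptions were the inner Nkx2-2 start peak ranked in SOX2-ON, at 3.60, and Dbx1, at 5.19 in SOX2-OFF and 5.25 in CEpiLC.

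**Figure D1:**
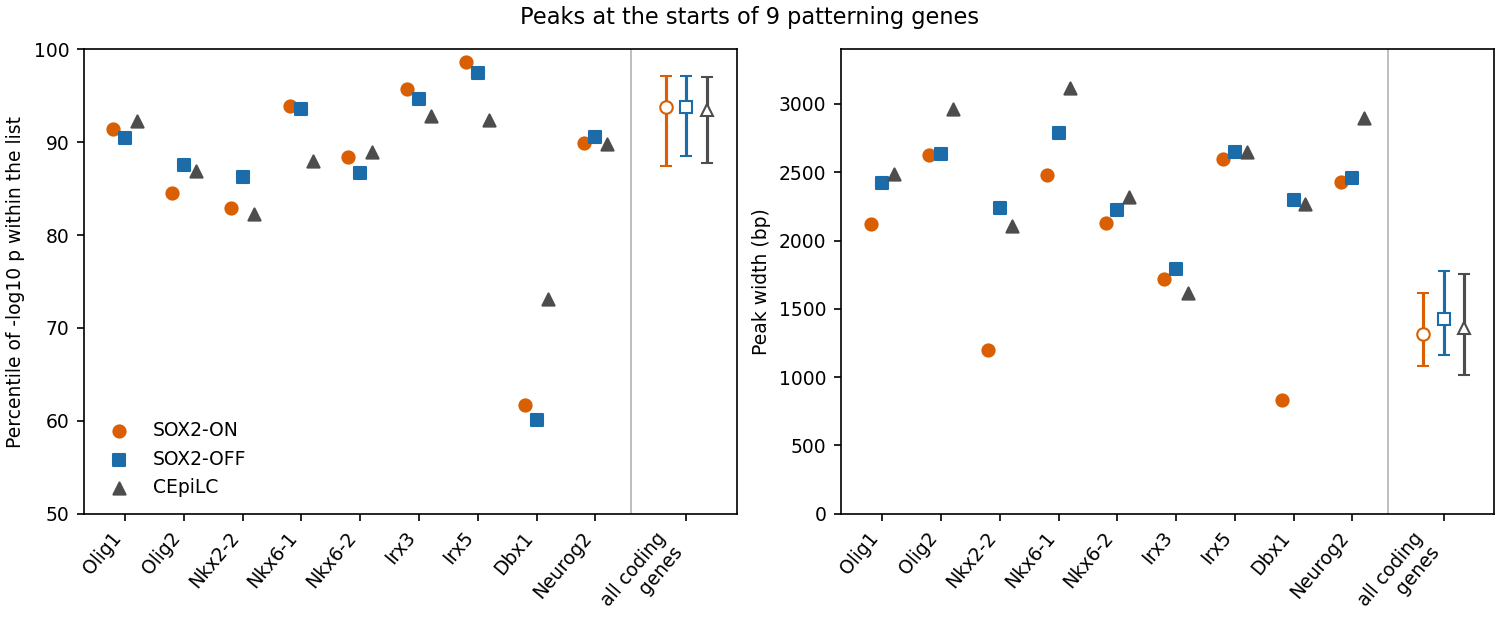
Start peaks of the 9 genes in the 3 lists, with 1 point per gene and list. The left axis is the percentile of −log10 p within the list (axis from 50 to 100) and the right axis the peak width in bp; open symbols with bars give the median and quartiles over all coding genes with a start peak. Dbx1 sits between 60.1 and 73.1, below the rest, and most widths lie above the quartile bars.

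At the Olig genes, whose windows overlap, the strongest list-specific peak of all 9 loci was found. It lay 32.6 kb upstream of Olig2, spanned 893 bp and ranked 19246th in SOX2-ON (percentile 85.2, fold enrichment 3.07, −log10 p 28.1), above the Olig2 start itself at 84.5. Neither SOX2-OFF nor CEpiLC had a peak there. Another SOX2-ON only peak lay 6.96 kb upstream of Olig1 over the gene model Gm37016 (percentile 70.7, 600 bp). The region 34.5 kb downstream of Olig1 had the reverse pattern, with percentiles of 53.0 in SOX2-OFF and 75.4 in CEpiLC and no peak in SOX2-ON. A region 44.7 kb downstream of Olig1 was held by all 3 lists at 79.0, 84.7 and 86.8. The region 18.0 kb upstream of Olig2 ranked at 5.76 in SOX2-ON and 47.9 in CEpiLC and was missing from SOX2-OFF. The Olig loci thus held regions of both directions within a single window.

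Of the 8 regions around Nkx6-1, 4 were held by all lists, at 23.6 kb upstream, at the start, in the exon 5.77 kb downstream and at 16.6 kb downstream, with percentiles from 77.0 to 93.9. A pair of regions was held by SOX2-OFF and CEpiLC and not by SOX2-ON. They lay 25.8 kb upstream (70.4 and 54.2) and 8.61 kb downstream (40.7 and 71.7). SOX2-ON alone held the region 48.6 kb upstream at percentile 71.6. No region around Nkx6-1 was found in SOX2-OFF only.

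Around Nkx2-2 lay 6 regions of all 3 lists between its start and 15.7 kb downstream. The last of these, over an Nkx2-2 exon, ranked at 83.6 for SOX2-ON, 89.4 for SOX2-OFF and 88.2 for CEpiLC. The intronic region 13.2 kb downstream showed the largest rank difference of the 9 loci at a region of all lists, 9.04 for SOX2-ON, 26.8 for SOX2-OFF and 74.9 for CEpiLC. Its width grew in the same order, 308, 415 and 861 bp. The intronic region 4.14 kb downstream stood at 83.9, 70.0 and 87.1, lowest in SOX2-OFF. Both engineered-line lists and not CEpiLC held the repeat-masked region 23.3 kb downstream (72.9 and 69.7). The 4 regions found in CEpiLC only ranked at 46.1 or lower.

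The Nkx6-2 window held 23 regions, the most of the 7 genes off chromosome 8, of which 18 were found in a single list. These were 8 of SOX2-ON, 2 of SOX2-OFF and 8 of CEpiLC. Over all regions off chromosomes 6, 8 and 11, such regions made up 16.6, 13.3 and 19.8%. The 18 regions were weak, at percentiles of 51.2 or lower, and most lay in the neighbouring genes Inpp5a and Cfap46. Of the 4 regions of all lists, that 33.3 kb upstream at a start of Cfap46 stood at 59.6, 81.2 and 68.5. A region 8.73 kb upstream was held at 66.1 in SOX2-ON and 33.1 in SOX2-OFF and not by CEpiLC.

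Around Dbx1, 11 of 14 regions were held by more than 1 list, and several of them differed widely in rank. Off chromosomes 6, 8 and 11, all 3 lists held 31.3% of regions. The pairs SOX2-ON and SOX2-OFF, SOX2-ON and CEpiLC, and SOX2-OFF and CEpiLC held 6.55, 3.83 and 8.59%. Between 9.23 and 16.6% of shared regions there differed by over 20 points in a given direction, depending on the pair. Wide rank differences were thus not particular to Dbx1, and its counts were not tested against these shares. The region 25.5 kb upstream stood at 81.9 for SOX2-ON, 47.1 for SOX2-OFF and 77.2 for CEpiLC, with widths of 1106, 1069 and 1176 bp. The region 41.8 kb upstream stood at 71.0 in SOX2-ON and 7.28 in SOX2-OFF and had no peak in CEpiLC. The region 3.03 kb upstream went the other way, at 51.3, 80.0 and 78.7. A Dbx1 exon 3.36 kb downstream of the start stood at 74.5, 79.0 and 87.4, above the start itself in every list. SOX2-OFF was lowest at one upstream region and SOX2-ON at the other, so the locus as a whole had no single direction.

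At Neurog2, 4 strong regions, 7.29 and 5.06 kb upstream, at the start and 7.38 kb downstream, were held by all lists at similar ranks. They stood at 88.8, 79.3, 89.9 and 85.0 in SOX2-ON, at 88.2, 81.8, 90.6 and 89.0 in SOX2-OFF and at 88.4, 80.2, 89.8 and 86.3 in CEpiLC. The other 5 regions, 3 of SOX2-ON, 1 of SOX2-OFF and 1 of CEpiLC, ranked at 37.7 or lower.

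**Figure D2:**
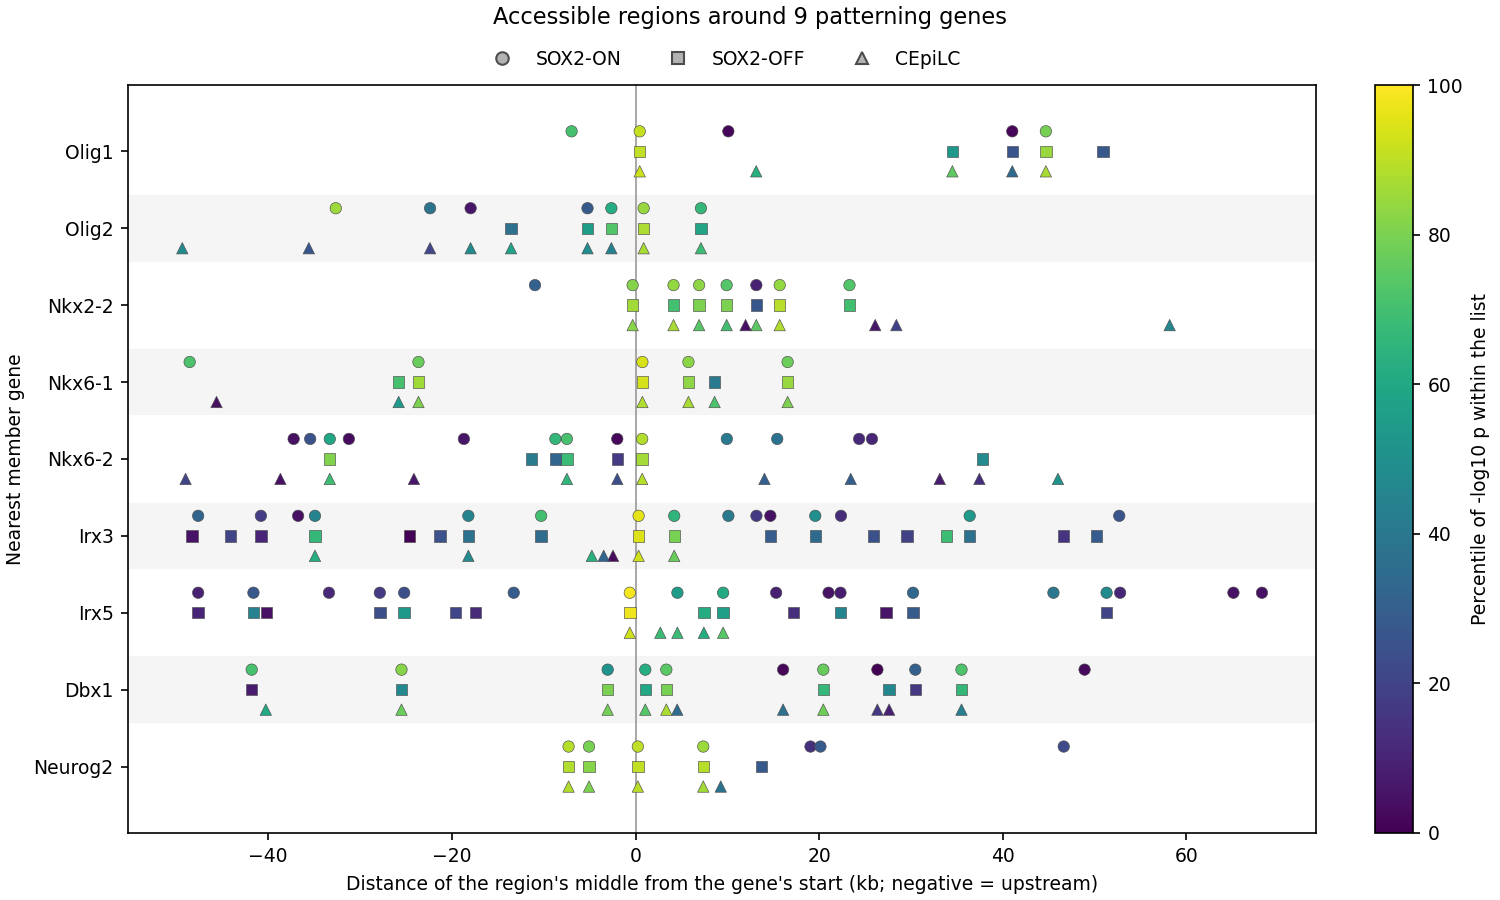
Regions around each gene by list, assigned to the nearest of the 9 starts. The horizontal axis is the distance of the region's middle from the start in kb in the direction of transcription, each symbol is a region held by that list, and colour gives the percentile within the list. Neurog2 shows 4 strong columns shared by the 3 lists, Olig2 a lone SOX2-ON symbol 32.6 kb upstream, and the Irx3 and Irx5 rows many dark symbols of SOX2-ON and SOX2-OFF.

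The Irx3 window held 16 peaks of SOX2-ON, 18 of SOX2-OFF and 7 of CEpiLC, and the Irx5 window 18, 16 and 5. Over coding genes of chromosome 8, the median window held 21, 21 and 13, so the higher counts of the engineered line were not particular to the Irx genes. Of the 52 regions around them, 40 (76.9%, Wilson 95% interval 63.9 to 86.3) were held by SOX2-ON, SOX2-OFF or both and not by CEpiLC, against 74.8% of all regions of chromosome 8. The strongest SOX2-OFF only peak of the 9 loci, 33.9 kb downstream of Irx3, was among them (percentile 68.6, 743 bp). Nearest the genes the pattern differed. CEpiLC alone held an Irx5 exon 2.70 kb from the start (68.0) and an Irx3os exon 4.75 kb upstream of Irx3 (63.5). A second Irx5 exon, 4.57 kb downstream, was held by SOX2-ON and CEpiLC at 54.9 and 68.2. The region 22.3 kb downstream of the Irx5 start, beyond the gene, stood at 7.88 in SOX2-ON and 45.5 in SOX2-OFF.

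Taking all peaks of the windows, the median percentile was 41.0, 50.3 and 63.0 in the 3 lists. Without Irx3 and Irx5 it was 66.1, 69.8 and 60.1, against 57.3, 56.7 and 52.0 for all peaks off chromosomes 6, 8 and 11, so the low medians of the engineered line came with the chromosome 8 windows. Of the 84 regions around the other 7 genes, 31 (36.9%, 95% interval 27.4 to 47.6) were held by all 3 lists, against 31.3% of regions off chromosomes 6, 8 and 11. Over all 9 genes it was 37 of 136 (27.2%), with 27% over the whole series. All 10 regions at a start of one of the 9 genes were among these 37. The backgrounds here take in regions outside gene windows, and sharing was not computed over windows of all coding genes. SOX2-ON only regions made up 31 of 136 (22.8%, against 16.9%), SOX2-OFF only 18 (13.2%, against 15.1%) and CEpiLC only 23 (16.9%, against 20.3%). The pair SOX2-ON and SOX2-OFF held 16 (11.8%, against 10.5%), SOX2-ON and CEpiLC 5 (3.68%, against 3.28%) and SOX2-OFF and CEpiLC 6 (4.41%, against 6.92%). Most of these shares lay near the background. Around the 7 genes, 4 regions were found in SOX2-OFF only (4.76%, against 13.3% off the same chromosomes), 17 in SOX2-ON only (20.2%, against 16.6%) and 19 in CEpiLC only (22.6%, against 19.8%).

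Counted as peaks of which less than 10% was covered in either other list, 31 of 91 SOX2-ON peaks (34.1%, against 29.2% of the whole list), 18 of 78 SOX2-OFF peaks (23.1%, against 26.2%) and 23 of 71 CEpiLC peaks (32.4%, against 34.8%) were found in no other list. For the 7 genes off chromosome 8 these were 17 of 57 (29.8%, 95% interval 19.5 to 42.7), 4 of 44 (9.09%, 3.59 to 21.2) and 19 of 59 (32.2%, 21.7 to 44.9), against 28.4, 23.0 and 30.8% off chromosomes 6, 8 and 11. The intervals cover counting error over peaks only. SOX2-OFF thus had few peaks of its own at these 7 genes. The unshared peaks of all 9 genes were weak, at median percentiles of 13.7, 20.1 and 29.5 against 63.3, 64.0 and 74.3 for the shared ones. Of them, 3, 1 and 5 ranked in the upper part of their list, at percentile 50 or more. For the 7 genes the unshared medians were 22.3, 34.6 and 26.3. Off chromosomes 6, 8 and 11, unshared peaks were also the weaker ones, at 36.9, 23.4 and 26.2 against 64.8, 66.6 and 66.7. There 8944 of 24730, 3108 of 20243 and 5012 of 29618 ranked at percentile 50 or more. At a −log10 q of at least 5, 8 of 33 SOX2-ON peaks, 5 of 31 SOX2-OFF peaks and 0 of 20 CEpiLC peaks were unshared, against 28.5, 19.3 and 4.21% of the peaks kept. A count of 0 of 20 allows a share of up to 15%.

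**Figure D3:**
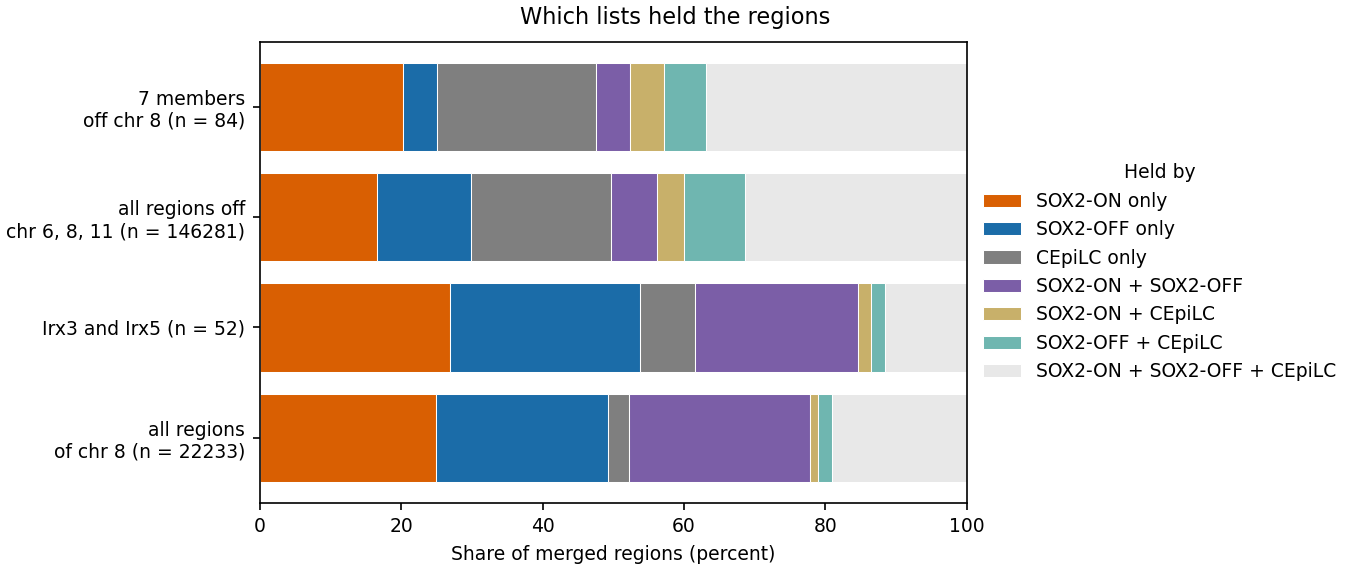
Share of merged regions, in percent, by the lists that held them, for the 7 genes off chromosome 8 and for Irx3 and Irx5, each above its background of all regions off chromosomes 6, 8 and 11 or on chromosome 8. SOX2-OFF only regions make up 4.76% at the 7 genes against 13.3%. The Irx3 and Irx5 bar resembles that of chromosome 8 in the total of regions held by the engineered line and not CEpiLC. Its 52 regions include more of CEpiLC only (7.69%, against 2.99%) and fewer of all 3 lists (11.5%, against 19.0%).

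At regions held by both lists of a pair, a difference of over 20 percentile points was taken as a shift. Between SOX2-ON and SOX2-OFF, 5 of 53 regions were higher in SOX2-ON (9.43%, against 9.94% of all shared regions) and 8 higher in SOX2-OFF (15.1%, against 14.9%). Between SOX2-ON and CEpiLC, 1 of 42 was higher in SOX2-ON (2.38%, against 11.4%) and 7 higher in CEpiLC (16.7%, against 16.5%). Between SOX2-OFF and CEpiLC, 3 of 43 were higher in SOX2-OFF (6.98%, against 12.1%) and 5 higher in CEpiLC (11.6%, against 10.7%). Of these shares, that of regions higher in SOX2-ON than in CEpiLC lay farthest from its background. It rested on 1 of 42 regions, and no interval was computed for it. Around the 7 genes off chromosome 8, 3 of 35 regions were higher in SOX2-ON than in SOX2-OFF (8.57%, against 9.23% off chromosomes 6, 8 and 11). The reverse held for 4 (11.4%, against 13.8%). Against CEpiLC, 1 of 35 was higher in SOX2-ON (2.86%, against 10.6%) and 7 were lower (20%, against 16.6%). In SOX2-OFF, 3 of 36 were higher than in CEpiLC (8.33%, against 11.2%) and 5 lower (13.9%, against 10.6%). Widths at the shared regions of all 9 genes were close between lists. The median ratio was 0.915 for SOX2-ON over SOX2-OFF (0.916 over all shared regions), 0.929 for SOX2-ON over CEpiLC (1.02) and 1.01 for SOX2-OFF over CEpiLC (1.14). For the 7 genes these ratios were 0.899, 0.917 and 1.03, against 0.927, 1.01 and 1.13 off chromosomes 6, 8 and 11. The 3 comparisons share samples and are not independent. The largest shift between SOX2-OFF and CEpiLC beside the Nkx2-2 intron was 27.6 kb downstream of Dbx1 in an exon of Nav2, at 46.8 and 9.11.

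**Figure D4:**
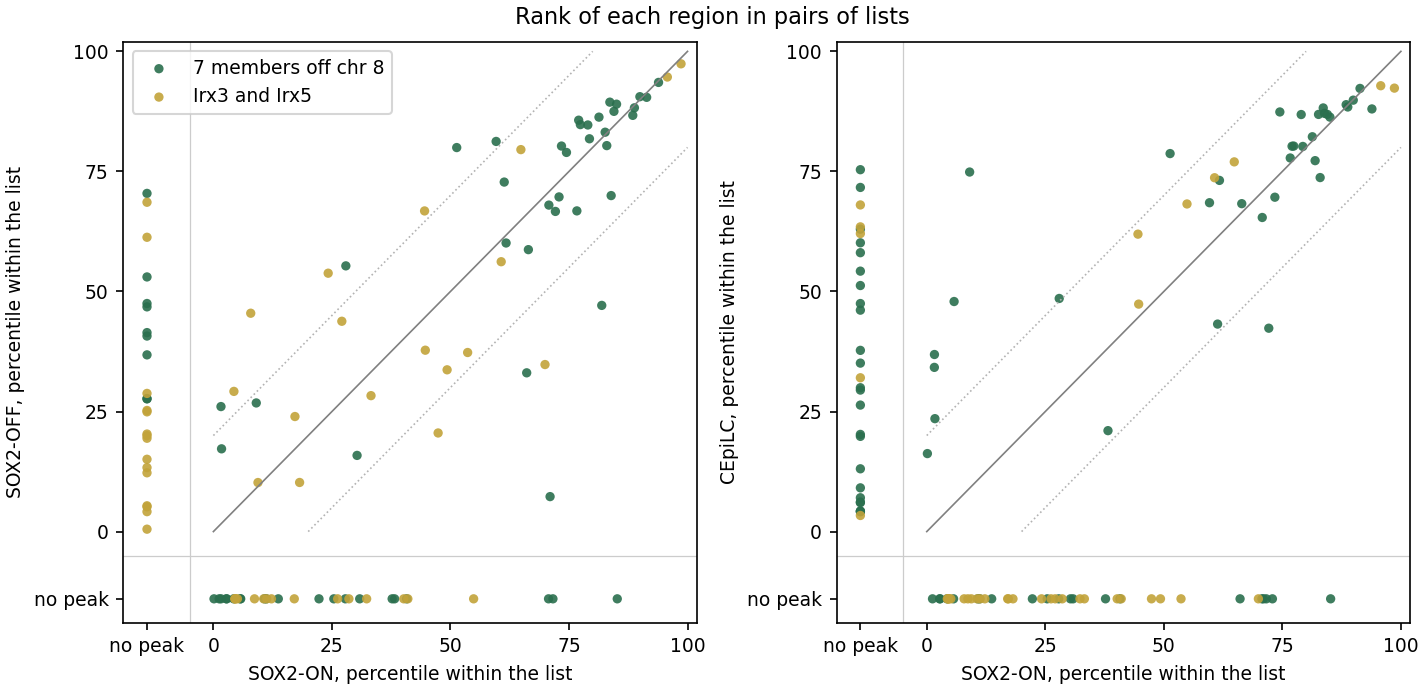
Percentile of each region around the 9 genes in SOX2-ON (horizontal) against SOX2-OFF (left) and CEpiLC (right), with regions missing from a list placed at "no peak". The solid line marks equal rank and the dotted lines a difference of 20 points; regions of high rank in both lists lie near the solid line, and missing regions are mostly of low rank in the list that holds them.

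Over all windows, 69 of the 136 regions were intergenic, 28 intronic, 20 exonic, 10 at a start of one of the 9 genes and 9 at the start of another gene. The window limit was crossed by accessible DNA: the region just inside the Nkx6-1 limit was the SOX2-ON only one at percentile 71.6, and that just outside the Nkx6-2 limit was held by all lists at 85.6, 66.9 and 80.7. Over the central 200 bp of all peaks around the 9 genes, the SOX letters occurred in 11 of 91 SOX2-ON peaks (12.1%, 95% interval 6.89 to 20.4), 11 of 78 SOX2-OFF peaks (14.1%, 8.06 to 23.5) and 2 of 71 CEpiLC peaks (2.82%, 0.776 to 9.70), against 11.5, 9.07 and 8.54% of the whole lists. CAGATG occurred in 19 (20.9%), 12 (15.4%) and 5 (7.04%), against 15.3, 15.7 and 16.2%. Of 33 intervals, for 11 motifs in 3 lists, 2 did not hold the share of the whole list. They were CAGATG in CEpiLC (3.05 to 15.4) and the GATA motif in CEpiLC. The latter occurred in 1 of 71 peaks (1.41%, 0.249 to 7.56) against 7.61%. Among 33 intervals at the 95% level, some misses arise by counting error alone.

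A second list of 25 neural tube genes gave context. It held dorsal factors such as Pax3, Pax7, Msx1 and Atoh1, the hedgehog ligand Shh, its receptor Ptch1, the GLI effectors, the other Irx genes and Sox1 and Sox3. All 25 had a start peak in each list, with median percentiles of 89.0 for SOX2-ON, 89.2 for SOX2-OFF and 87.3 for CEpiLC, and median widths of 1779, 2185 and 1905 bp. The lowest in SOX2-ON were Prdm12, a regulator of interneuron fate, at 6.70 against 68.5 in SOX2-OFF and 63.4 in CEpiLC, and Shh at 42.6 against 58.6 and 62.3. In their windows 25.1, 19.8 and 30.4% of peaks were found in no other list, against 29.2, 26.2 and 34.8% of the whole lists. All 3 lists held 153 of 443 regions (34.5%), against 27% over the whole series. These values pool all 25 genes, including Atoh1 on chromosome 6 and Irx6 and Sox1 on chromosome 8. Start peaks were thus present in every list at both sets of genes. The median widths of the second set lay above the 1317, 1425 and 1358 bp of all coding genes with a start peak. Some of its peaks were narrower than that, such as Msx2 (742 bp) and Shh (299 bp) in SOX2-ON.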

How the data were processed

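Broad peaks were analysed in 1 ATAC-seq sample each of SOX2-ON, SOX2-OFF and CEpiLC, grouped by the labelled genotype and doxycycline treatment. Each library started from 50000 cells and had at most 12 PCR cycles, per the labels. In the nf-core/atacseq pipeline, the authors removed adapters (Trim Galore), mapped reads to mm10 (BWA), discarded mitochondrial reads and called peaks (MACS2). Peaks were called per sample, and no control library is described. The deposited fold enrichment is a ratio of pileup to local background within the library, and the deposited −log10 p and −log10 q come from the same caller. The deposited score was not used. Read totals were not used here, so depth is unknown. Nearby sites are joined by broad calling, and the settings for shifting transposase cut sites are not given in the sources used here, so widths and edges are approximate.

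Genes and starts came from GENCODE M21 (GRCm38, the build mm10), and sequences and repeat masking from the RefSeq GRCm38 genome. Percentiles of −log10 p were computed within each list with ties counted equally to both sides. A peak was found in another list when at least 10% of its length was covered there, and regions were the union of overlapping peaks. Start peaks lay within 1 kb of a start, the highest being taken. Motifs were searched in the central 200 bp. Interval code (Python 3.11, pandas, numpy) was tested on simulated data against bedtools 2.31.1. Named were all 9 genes, the 3 strongest unshared peaks per list, and per pair of lists the 2 strongest regions missing from one list and the 2 largest rank differences. The second list held Pax3, Pax6, Pax7, Msx1, Msx2, Olig3, Atoh1, Neurog1, Gsx1, Gsx2, Dbx2, Prdm12, Nkx2-9, Foxa2, Shh, Ptch1, Gli1, Gli2, Gli3, Irx1, Irx2, Irx4, Irx6, Sox1 and Sox3, and 1 further gene of it is not reported here. Of the named regions, 8 sequences were printed: the 2 highest of SOX2-ON only, the highest of 4 other presence patterns, and 2 with the largest rank difference. The remaining regions named in the text were chosen after their values were seen. The genes, the lists of further genes and the alternatives were chosen with earlier results of these data known, as was the separate treatment of chromosomes 6, 8 and 11.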

Additional observations from a re-analysis of the deposited data

How the results depend on the processing

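The presence of a start peak at the 9 genes held under stricter lists, 8 or 9 of 9 in each list, with Dbx1 the gene that was lost, and under start limits of 0 and 2 kb. With windows of 20 kb, the share of peaks found in no other list was 25% in SOX2-ON and 12.8% in SOX2-OFF. The whole lists gave 29.2 and 26.2%. The share of regions held by all 3 lists was 40%, against 27% of the whole series, which is not limited to windows around gene starts. The median percentile was 61.0 in SOX2-ON and 66.8 in SOX2-OFF. At a −log10 q of at least 2, the unshared share was 17.4% in CEpiLC, against 21.7% of all peaks kept. The share held by all was 44.3%. At a −log10 q of at least 5, the unshared share was 24.2% in SOX2-ON and 0% in CEpiLC. All peaks kept gave 28.5 and 4.21%. The share held by all was 48.7% and the median percentile in CEpiLC was 41.9. With the strongest 50000 peaks per list, the unshared share was 17.6% in SOX2-ON and 9.68% in SOX2-OFF. All peaks kept gave 24.5 and 14.4%. The share held by all was 46.9%. For these stricter lists the share held by all was not computed over the whole series. With 50% of the length required to be covered, a setting not computed over the whole list, the unshared share in SOX2-OFF was 35.9%. Without Irx3 and Irx5, it was 9.09% in SOX2-OFF, against 23.0% off chromosomes 6, 8 and 11. The share held by all was 36.9%, against 31.3%. The median percentile was 66.1 in SOX2-ON and 69.8 in SOX2-OFF, against 57.3 and 56.7. Of 81 alternative values, 49 stayed within the 95% interval of the main value, or within 1.5 times of it for counts, and 32 did not. No paired analysis was possible because there was 1 sample per group. Depth was unknown, so a missing peak was not told apart from one below the calling threshold.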
